A study of Homo sapiens with 18 samples.

Results

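The 9 genes described here encode the brakes of the G1 phase other than CDKN1A: the CDK inhibitors CDKN1B, CDKN1C, CDKN2A, CDKN2B, CDKN2C and CDKN2D, and the pocket proteins RB1, RBL1 and RBL2. They make up these families apart from CDKN1A, were listed with earlier results of these data known, and were found by their Ensembl transcript identifiers among the 35579 genes matched in the series. All 9 passed the filter on low counts, which left 13527 genes for testing. CDK inhibitors bind cyclin-dependent kinases or their cyclin complexes and hold them inactive. When the kinases are active they phosphorylate the pocket proteins, which then release the E2F transcription factors that switch on genes for DNA synthesis. In skin fibroblasts this system is best known for entry into quiescence and for senescence, in which p16, a product of CDKN2A, accumulates.

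Poly(A) RNA was sequenced from hiF-T, a human fibroblast-like line made from BJ skin fibroblasts and carrying an inducible telomerase (hTERT) gene. All groups were labelled wild type and carried CRISPR guides. The groups were CDKN1A knockdown (4 libraries, guides 1 and 2), KDM1A knockdown (4 libraries, guides 2 and 3), SPP1 knockdown (6 libraries, guides 1 to 3) and a control guide, titled backbone (4 libraries, guides 1 and 2). Each guide had biological replicates 1 and 2. CDKN1A encodes p21, the CDK inhibitor left out of the list, KDM1A encodes a histone lysine demethylase, and SPP1 encodes the secreted protein osteopontin. The labels state neither the CRISPR mechanism nor whether replicates were separate cultures, so p-values measure only the spread between these libraries.

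A library held 11907197 to 17016094 estimated counts, which were set relative to library size and scaled by TMM to give CPM. In its own knockdown, CDKN1A fell to 58.2% of control (357 ± 86.2 CPM in CDKN1A knockdown and 612 ± 65.9 CPM in control, SD, n = 4 each, edgeR adjusted p = 0.00395). KDM1A fell to 52.9% of control in its own knockdown (adjusted p = 7.27e-06). SPP1 stood at 61.4% of control in its own knockdown, which did not pass the test (adjusted p = 0.0696). It had 24.2, 26.9, 47.4, 55.2, 63 and 21.7 CPM in the libraries labelled SPP1 knockdown, against 66.8, 55.2, 63.7 and 72.7 CPM in control. The library labelled SPP1 guide 3 replicate 1, at 63 CPM, lay inside the control range, while replicate 2 of that guide was the lowest of all. The SPP1 group is therefore a group by label, and its calls among the 9 genes are also given without that library. Outside its own knockdown SPP1 stood at 205% of control in KDM1A knockdown (edgeR adjusted p = 0.00794) and 181% in CDKN1A knockdown (0.0646). CDKN1A stood at 79.5% in KDM1A and 80.3% in SPP1 knockdown (edgeR adjusted p = 0.112 and 0.116). KDM1A stood at 102% in CDKN1A and 97.4% in SPP1 knockdown (edgeR adjusted p = 0.93 and 0.864). Of 8 fibroblast markers, 7 averaged at least 1 TPM in every group, with VIM at 5510 to 6490 TPM and COL1A1 at 1130 to 1880 TPM, while THY1 was at 0 to 1.19 TPM. Of the keratinocyte genes, KRT1 was at 0, KRT5 at 0 to 0.241 TPM and KRT14 at 0.37 to 3.28 TPM, while KRT10 was at 142 to 194 TPM. The summed melanocyte, endothelial and leukocyte markers reached at most 3.36, 0.736 and 2.02 TPM in any library. In bulk RNA, fewer cells with a transcript and less transcript per cell cannot be told apart.

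Levels were first compared between the genes in the TPM that the authors deposited, a unit per transcript length, summed per gene. In control libraries CDKN2C (45.3 ± 4.86 TPM, SD, n = 4) and CDKN2A (45.2 ± 5.32 TPM) were highest, followed by RB1 (35.4 ± 3.85 TPM), CDKN2D (26.9 ± 3.08 TPM) and CDKN1B (25.6 ± 1.47 TPM). RBL1 (16.5 ± 1.22 TPM) and RBL2 (14.8 ± 2.53 TPM) were lower, and CDKN2B (4.53 ± 1.74 TPM) and CDKN1C (1.91 ± 0.989 TPM) lowest. The control libraries left a gap between CDKN2A and RB1, between CDKN1B and RBL1, and between RBL2 and CDKN2B. The other neighbours in this order overlapped. Over all 18 libraries the mean ran from 51.8 TPM for CDKN2A to 1.83 TPM for CDKN1C. The counts behind the 2 lowest genes limit their precision: CDKN1C had 8 to 49 counts in a library and CDKN2B 38 to 100, against 982 to 1706 for RB1.

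**Figure D1:**
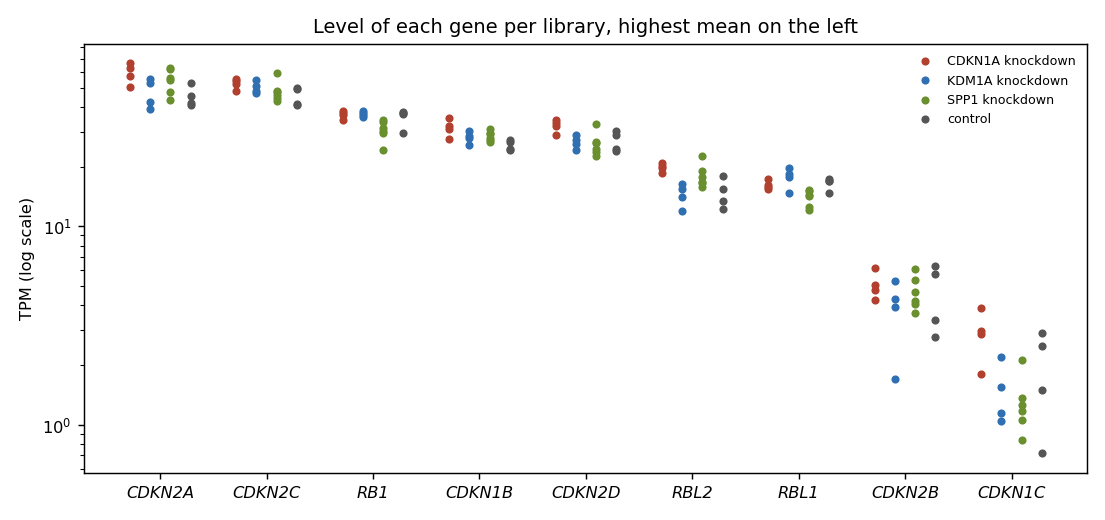
Deposited TPM of each gene in each of the 18 libraries, on a log scale, with the genes in order of their mean. Points are libraries, coloured by group, with the knockdowns left of control; CDKN2A, at 51.8 TPM on average, and CDKN2C, at 48.8 TPM, stand at the top and CDKN1C, at 1.83 TPM, at the bottom.

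Against control, each knockdown had 1 of the 9 genes at an adjusted p under 0.05, a different gene each time. Which gene passed does not test a difference between the knockdowns, and their direct comparison is given below. None of the 3 calls held with the libraries of a guide summed. RBL2 rose in CDKN1A knockdown, where 1.09% of all genes tested rose and 0.917% fell. CDKN2B fell in KDM1A knockdown, where 5.33% of all genes rose and 3.73% fell. RBL1 fell in SPP1 knockdown, where 2.40% of all genes rose and 3.06% fell. All 3 comparisons share the 4 control libraries. Some libraries are said below not to overlap another group, or to lie above or below all of its libraries. The share of all genes for which this holds was not computed, so such statements are description only. The median log2 fold change of the 9 genes was 0.24 in CDKN1A knockdown, 0.02 in KDM1A knockdown and -0.02 in SPP1 knockdown, beside medians over all genes tested of -0.004, -0.011 and 0.004.

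**Figure D2:**
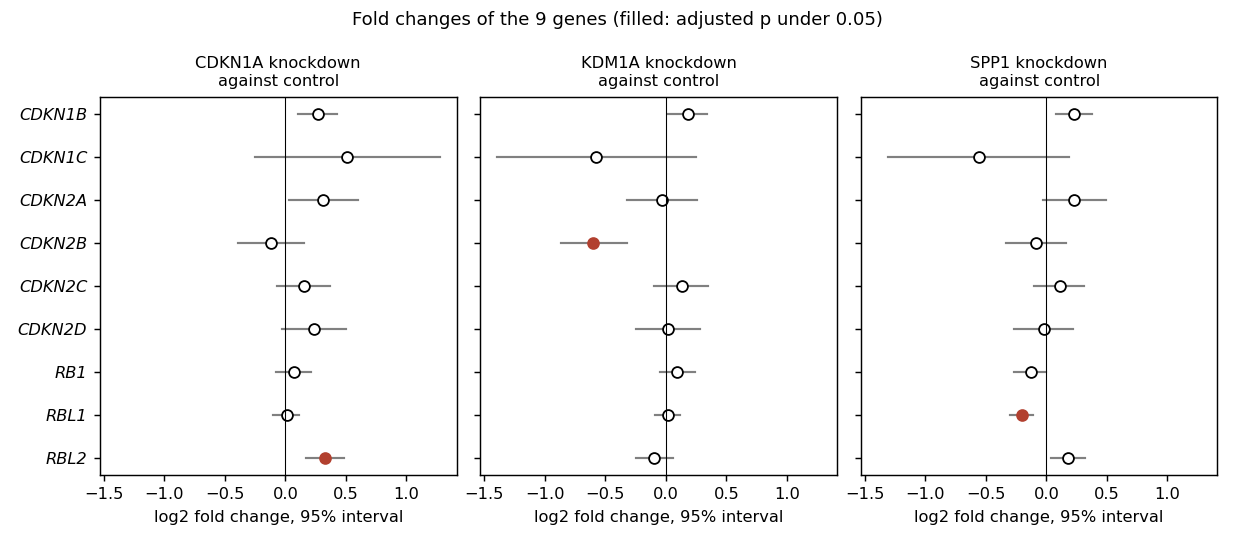
Log2 fold change of each gene in each knockdown against control, with its 95% interval from edgeR's quasi-likelihood fit. Filled points passed an adjusted p of 0.05: RBL2 at 0.33 in CDKN1A knockdown, CDKN2B at -0.60 in KDM1A knockdown and RBL1 at -0.20 in SPP1 knockdown.

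CDKN1B (ENSG00000111276, GRCh38 chromosome 12, 12715058 to 12722371) encodes p27, which binds cyclin E and cyclin A complexes of CDK2 and is removed by the SCF-SKP2 ubiquitin ligase. It had 44.9, 41.4, 46.1 and 38.7 CPM in CDKN1A knockdown. It had 42.8, 41.4, 36.6 and 40.3 CPM in KDM1A knockdown, and a lowest, median and highest value of 37.9, 41.1 and 47.1 CPM in the 6 SPP1 libraries. Control libraries had 32.7, 34, 37.1 and 38.8 CPM. All groups overlapped control, but 3 of 4 CDKN1A, 3 of 4 KDM1A and 5 of 6 SPP1 libraries lay above every control library. The groups share these control libraries, and such counts were not made over all genes. Between control guide 2 and control guide 1 CDKN1B differed by log2 0.19 (edgeR adjusted p = 0.377). The log2 fold changes were 0.27 ± 0.08 (SE) in CDKN1A knockdown, 0.18 ± 0.08 in KDM1A knockdown and 0.23 ± 0.07 in SPP1 knockdown. None passed edgeR's test, with adjusted p = 0.077, 0.175 and 0.0667, and unadjusted p under 0.05 in all 3. DESeq2 called the first and the last (adjusted p = 0.0328 and 0.0411).

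CDKN1C (ENSG00000129757, chromosome 11, 2883213 to 2885773) encodes p57, the relative of p27 expressed from the maternal copy of an imprinted domain. It had 3.09, 2.92, 3.32 and 1.83 CPM in CDKN1A knockdown, 1.19, 0.811, 1.89 and 1.38 CPM in KDM1A knockdown, and a lowest, median and highest value of 0.666, 1.23 and 2.29 CPM in SPP1 knockdown. Control libraries had 3.04, 2.58, 0.595 and 1.63 CPM, a spread as wide as that of all knockdown libraries together apart from 2 CDKN1A libraries above it. The log2 fold changes against control, 0.51 ± 0.37, -0.58 ± 0.39 and -0.56 ± 0.36, did not pass the test (edgeR adjusted p = 0.526, 0.419 and 0.401). Without control guide 1, both negative values turned to 0.26 and 0.27.

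CDKN2A (ENSG00000147889, chromosome 9, 21967753 to 21995301, minus strand) encodes 2 unrelated proteins from 1 locus. Transcripts that begin at the INK4A first exon (21974678 to 21975098) give p16, an inhibitor of CDK4 and CDK6. Transcripts that begin upstream at the ARF first exon (21994139 to 21994624) give p14ARF, which binds MDM2 and so protects p53. Both splice to the same second exon (21970902 to 21971208, 307 bases). The coding part of exon 1 has 150 bases in p16, with 0 left over after whole codons, and 193 in p14ARF, with 1 left over, so the shared exon is read in different frames. The sequences below, from GRCh38 by the GENCODE 29 models CDKN2A-201 and CDKN2A-214, show what separates the transcripts and what they share. First come the first 30 coding bases with the start codon in capitals, then the exon 1 to exon 2 junction with the shared exon 2 bases in capitals.
p16 start: ATGgagccggcggcggggagcagcatggag
p14ARF start: ATGgtgcgcaggttcttggtgaccctccgg
p16 junction: cggaggccgatccagGTCATGATGATGGGC
p14ARF junction: ttcctagaagaccagGTCATGATGATGGGC

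As a whole gene CDKN2A had 30.1, 27, 30.3 and 25.4 CPM in CDKN1A knockdown, 19.8, 20.1, 23.1 and 25.8 CPM in KDM1A knockdown, and 20.5, 25.8 and 34.7 CPM as lowest, median and highest value in SPP1 knockdown. Control libraries had 27.5, 19.6, 23.2 and 20.7 CPM and overlapped all 3 knockdowns. The log2 fold changes were 0.31 ± 0.14, -0.03 ± 0.14 and 0.23 ± 0.13 (edgeR adjusted p = 0.256, 0.923 and 0.317).

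Split by first exon, p16 transcripts had 18.8, 16.7, 20.5 and 15.1 CPM in CDKN1A knockdown, against 13.7, 7.45, 12.3 and 13.4 CPM in control. All 4 CDKN1A libraries lay above every control library. The log2 difference was 0.60 ± 0.21, a 1.52-fold higher mean, and did not pass the test (edgeR adjusted p = 0.144, unadjusted p = 0.00921). With the CDKN2A transcripts in 3 rows, p16, p14ARF and other starts, edgeR and DESeq2 called 0 of them against control, while edgeR called 2.05, 8.98 and 5.40% of all rows in CDKN1A, KDM1A and SPP1 knockdown. At an unadjusted p under 0.05 there was 1 row, p16 in CDKN1A knockdown, to which DESeq2 gave an adjusted p of 0.0762. In the fit with a coefficient for each guide, a log2 difference of 0.61, averaged over both guides, passed (adjusted p = 0.0396), but neither guide alone did (0.61 with each, edgeR adjusted p = 0.121 and 0.102). In that fit p16 stood at 0.67, -0.02 and 0.48 with SPP1 guides 1, 2 and 3 (edgeR adjusted p = 0.0862, 0.968 and 0.162) and at -0.19 and 0.31 with KDM1A guides 2 and 3 (0.639 and 0.412). Without control replicate 2 of guide 1, the lowest p16 library, the difference in CDKN1A knockdown was 0.44 (adjusted p = 0.306) in the fit by group.

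In KDM1A knockdown p16 transcripts had 10.7, 9.67, 12 and 16.7 CPM (log2 0.08, adjusted p = 0.885, edgeR). In SPP1 knockdown the lowest, median and highest values were 9.93, 15.4 and 20.1 CPM (log2 0.41, adjusted p = 0.244, edgeR), and 4 of 6 libraries lay above every control library. The p14ARF transcripts had 5.56, 6.7, 7.62 and 6.09 CPM in CDKN1A knockdown, 7.08, 5.74, 6.05 and 6.35 CPM in KDM1A knockdown, and 6.5, 7.39 and 11.4 CPM as lowest, median and highest value in SPP1 knockdown. Control libraries had 9.42, 8.71, 8.62 and 4.58 CPM, with 1 library apart from the other 3. The log2 differences of p14ARF were -0.28, -0.32 and 0.03 (edgeR adjusted p = 0.51, 0.349 and 0.941). Transcripts with other starts held 5.2 to 23.5% of CDKN2A counts in a library.

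As a description, p16 transcripts made up 73.1 ± 2.76% (SD, n = 4) of the p16 and p14ARF counts in CDKN1A knockdown, 65.5 ± 5.3% (n = 4) in KDM1A knockdown, 65.2 ± 6.31% (n = 6) in SPP1 knockdown and 59.7 ± 11.6% (n = 4) in control. The control libraries spread from 46.1 to 74.5% and covered nearly the whole range of the knockdowns. kallisto divides reads in the shared exons among transcripts by estimate, and 107 to 323 counts in a library were assigned to p16 and 59 to 138 to p14ARF, so the split is less certain than the gene total.

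**Figure D3:**
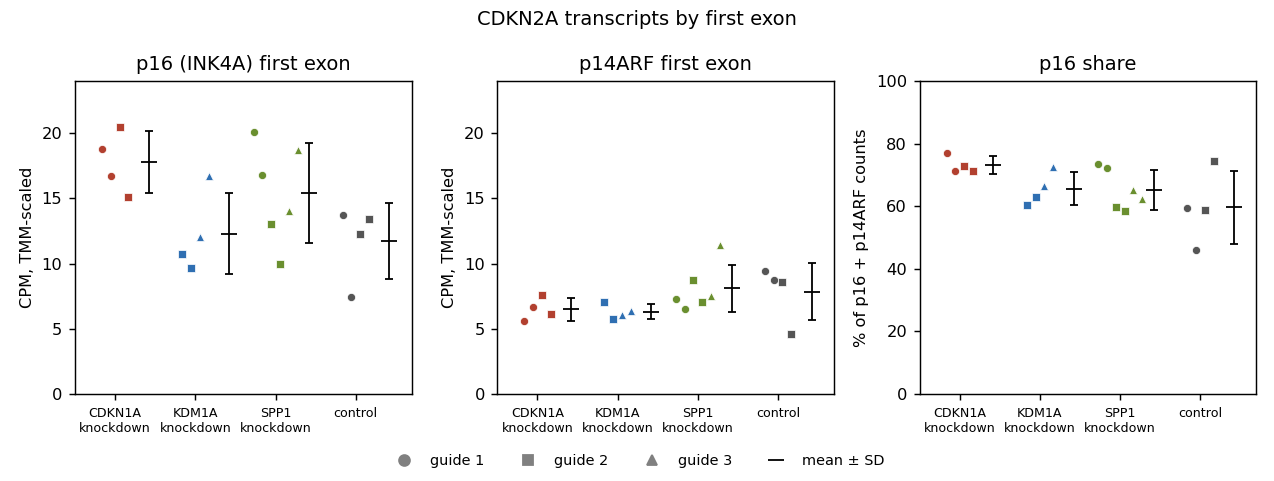
CPM of CDKN2A transcripts that begin at the p16 first exon and at the p14ARF first exon, and the p16 share of their summed counts in percent, by library, with mean and SD. In CDKN1A knockdown the p16 transcripts lie at 15.1 to 20.5 CPM, above the control libraries at 7.45 to 13.7 CPM, while the p14ARF transcripts of all groups overlap.

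CDKN2B (ENSG00000147883, chromosome 9, 22002903 to 22009363, minus strand) lies next to CDKN2A and encodes p15, a CDK4 and CDK6 inhibitor known as a target of TGF-beta signalling. It had 3.01, 4.18, 4.87 and 4.77 CPM in KDM1A knockdown, against 6.91, 6.69, 6.54 and 5.44 CPM in control. All 4 KDM1A libraries lay below every control library. The mean fell to 66% of control (log2 -0.60 ± 0.13, edgeR adjusted p = 0.00624), and the call held without any 1 of the 18 libraries. It did not hold with the deposited effective lengths as an offset (log2 -0.26, adjusted p = 0.718), with the libraries of a guide summed (log2 -0.59, 0.125), without control guide 1 (log2 -0.51, 0.117) or without KDM1A guide 2 (log2 -0.40, 0.084). The deposited TPM of KDM1A knockdown, 1.69 to 5.28, and of control, 2.75 to 6.3, overlapped. In CDKN1A knockdown CDKN2B had 5.87, 5.32, 6.21 and 6.16 CPM, and in SPP1 knockdown 5.59, 6.05 and 6.41 CPM as lowest, median and highest value. Both overlapped control (log2 -0.12 and -0.09, adjusted p = 0.695 and 0.724, edgeR). The antisense RNA CDKN2B-AS1 overlaps CDKN2B on the other strand (21994778 to 22121097) and was not analysed here. The labels do not say whether counting used strand, and whether any antisense reads were counted for CDKN2B was not tested.

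CDKN2C (ENSG00000123080, chromosome 1, 50960745 to 50974633) and CDKN2D (ENSG00000129355, chromosome 19, 10566462 to 10569059) encode p18 and p19, the INK4 proteins encoded outside the 9p21 locus. CDKN2C had 59.2, 54.7, 54.6 and 58 CPM in CDKN1A knockdown, 57.6, 60.7, 51.6 and 53.3 CPM in KDM1A knockdown, 48.7, 52.2 and 73.7 CPM as lowest, median and highest value in SPP1 knockdown, and 58.1, 54.7, 45.6 and 45.7 CPM in control. CDKN2D had 22.5, 22.6, 20.2 and 24 CPM in CDKN1A knockdown, 17.6, 19.1, 18.9 and 21 CPM in KDM1A knockdown, 15.4, 17.5 and 26.3 CPM as lowest, median and highest value in SPP1 knockdown, and 22.3, 19.5, 17.2 and 16.9 CPM in control. All groups overlapped control for both genes. The log2 fold changes of CDKN2C were 0.15, 0.13 and 0.11 in CDKN1A, KDM1A and SPP1 knockdown (edgeR adjusted p = 0.526, 0.522 and 0.584), and those of CDKN2D 0.24, 0.02 and -0.02 (edgeR adjusted p = 0.374, 0.963 and 0.938). The highest library for both was replicate 2 of SPP1 guide 3.

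RB1 (ENSG00000139687, chromosome 13, 48303726 to 48599436) encodes the retinoblastoma protein, which holds the activating E2F factors. It had 106, 105, 95.8 and 102 CPM in CDKN1A knockdown, 107, 106, 97.4 and 105 CPM in KDM1A knockdown, and 81.8, 88 and 98 CPM as lowest, median and highest value in SPP1 knockdown. Control libraries had 81.6, 99.5, 104 and 105 CPM. Replicate 1 of control guide 1, at 81.6 CPM, was the lowest control and lay just below the lowest SPP1 library, so the groups overlapped. The log2 fold changes were 0.07 ± 0.07 in CDKN1A knockdown, 0.09 ± 0.07 in KDM1A knockdown and -0.13 ± 0.06 in SPP1 knockdown (edgeR adjusted p = 0.682, 0.473 and 0.24). Without that control library the SPP1 value was -0.21 and passed the test (edgeR adjusted p = 0.0428). It was the only 1 of the 18 fits with 1 library left out that newly passed.

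RBL1 (ENSG00000080839, chromosome 20, 36996349 to 37095995, minus strand) encodes p107, a pocket protein that binds the repressor E2F4 in cycling cells and is itself known as an E2F target gene. Its upstream sequence is shown because it was the only one of 12 RefSeq start windows, for 8 of the 9 genes, that held any of 4 E2F-type words searched on both strands, TTTCGCGC, TTTGGCGC, TTTCCCGC and TTTGCCGC. The window for RB1 lies at an internal start and there was none for CDKN1C. The 250 bases before the RBL1 start (RefSeq, GRCh38.p14, chr20:37095998-37096247, minus strand) have the words in capitals.
RBL1 upstream: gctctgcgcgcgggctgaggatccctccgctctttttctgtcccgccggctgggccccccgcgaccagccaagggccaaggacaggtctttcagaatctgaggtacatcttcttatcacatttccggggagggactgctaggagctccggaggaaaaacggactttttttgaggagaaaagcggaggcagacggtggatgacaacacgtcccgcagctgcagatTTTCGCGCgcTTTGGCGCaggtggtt
TTTCGCGC lies 26 to 19 bases before the start and TTTGGCGC 16 to 9 bases before it. Of 35116 windows of this length, 0.439% held TTTCGCGC, 0.55% held TTTGGCGC, 1.39% held TTTCCCGC and 0.49% held TTTGCCGC. Any of the words occurred in 2.788% and both of the first in 7 windows. These are matches of letters only.

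In the 6 SPP1 libraries RBL1 had 42.6, 45.2, 44.9, 42.3, 43 and 43.8 CPM, against 48, 50.6, 49.1 and 53.4 CPM in control. Every SPP1 library lay below every control library. The mean fell to 86.8% of control (log2 -0.20 ± 0.05, edgeR adjusted p = 0.0178). The call was lost without replicate 2 of control guide 1 (adjusted p = 0.0671) or replicate 2 of control guide 2 (adjusted p = 0.0563), at a log2 value of -0.20 and -0.17, and held without SPP1 guide 3 replicate 1 (log2 -0.20, 0.0395). It was also lost with the length offset (0.12), with the libraries of a guide summed (0.305), without control guide 1 (0.0984) or 2 (0.119), and without SPP1 guide 2 (0.0571) or 3 (0.051), at log2 values of -0.23 to -0.17. RBL1 had 50, 49, 50.3 and 52.9 CPM in CDKN1A knockdown and 51.8, 54.9, 49.4 and 47.2 CPM in KDM1A knockdown. Both overlapped control, with log2 fold changes of 0.01 ± 0.05 and 0.02 ± 0.05 (95% intervals -0.10 to 0.11 and -0.09 to 0.12, edgeR adjusted p = 0.968 and 0.897).

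RBL2 (ENSG00000103479, chromosome 16, 53433977 to 53491649) encodes p130, the pocket protein of quiescent cells, where it joins E2F4 and the MuvB core in the DREAM complex that represses cell cycle genes. It had 42.8, 43.8, 44.8 and 44.2 CPM in CDKN1A knockdown, against 31.5, 38.7, 35.4 and 34.2 CPM in control. The 4 CDKN1A libraries were close together and lay above every control library. The mean was 1.26-fold higher (log2 0.33 ± 0.07, edgeR adjusted p = 0.0267). The call was near the threshold. It was lost without any 1 of the 4 CDKN1A libraries (adjusted p = 0.0559 to 0.0793), and without control guide 1 replicate 1 (0.0963), guide 2 replicate 1 (0.0624) or guide 2 replicate 2 (0.0521), with log2 values of 0.28 to 0.34. It was also lost with the length offset (log2 0.41, edgeR adjusted p = 0.113), with the libraries of a guide summed (0.438), and without either guide of control (0.121 and 0.0932) or of CDKN1A (0.101 and 0.201).

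In SPP1 knockdown RBL2 had 35.8, 39.5 and 45.5 CPM as lowest, median and highest value, with 3 of 6 libraries above every control library (log2 0.18 ± 0.07, edgeR adjusted p = 0.132). In KDM1A knockdown it had 32.1, 29.9, 34.8 and 33.9 CPM and overlapped control (log2 -0.10 ± 0.07, adjusted p = 0.468, edgeR). By TPM, RBL2 made up 27.3 ± 1.19% (SD, n = 4) of the pocket protein sum in CDKN1A knockdown, 20.9 ± 2.82% (n = 4) in KDM1A knockdown, 28.9 ± 2.26% (n = 6) in SPP1 knockdown and 22.1 ± 1.94% (n = 4) in control. RB1 made up the largest share in every group, at 50.4 ± 1.97%, 53.6 ± 1.21%, 48.8 ± 1.6% and 53.1 ± 1.38% in the same order.

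**Figure D4:**
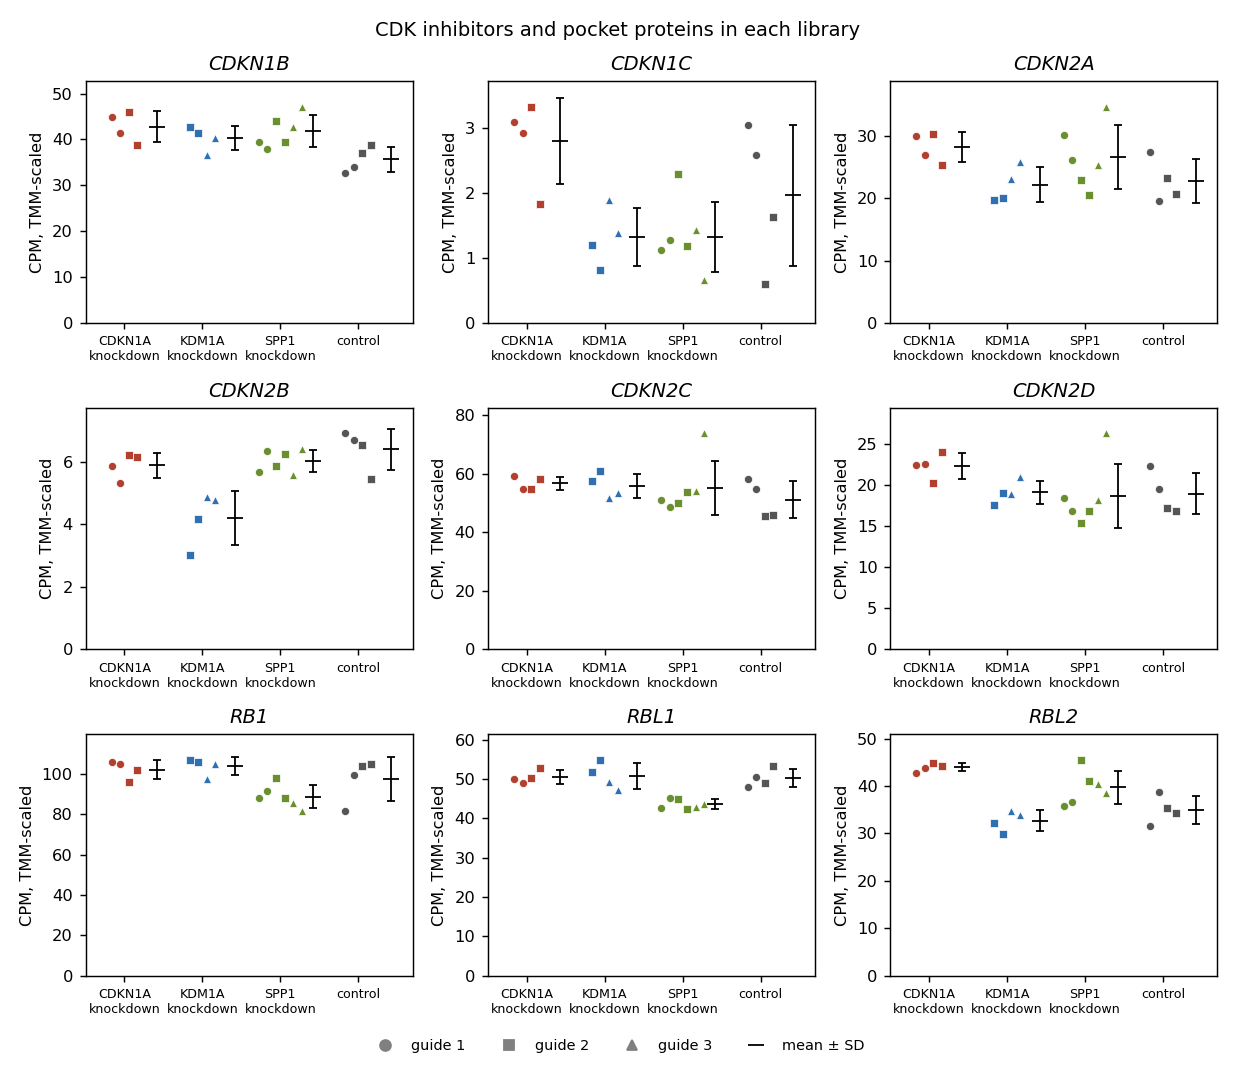
CPM of each of the 9 genes in every library, with symbols for the guide and bars for the mean and SD of a group. For RBL2 in CDKN1A knockdown, at 42.8 to 44.8 CPM, CDKN2B in KDM1A knockdown, at 3.01 to 4.87 CPM, and RBL1 in SPP1 knockdown, at 42.3 to 45.2 CPM, no library overlaps control. These are the genes already called against control, and the share of all genes without overlap was not computed.

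The knockdowns were also compared with each other, which tests the difference itself. The control libraries enter these comparisons through the shared estimate of spread. CDKN1A against KDM1A knockdown differed in RBL2 and CDKN2B, both higher in CDKN1A knockdown, where 6.91% of all genes tested were higher and 8.06% lower. RBL2 averaged 43.9 ± 0.84 CPM in CDKN1A knockdown and 32.7 ± 2.17 CPM in KDM1A knockdown (SD, n = 4 each, log2 0.43 ± 0.07, edgeR adjusted p = 0.000533). This was the only difference of the 9 genes, in any of the 6 comparisons, that stayed called under all 35 alternatives. CDKN2B averaged 5.89 ± 0.41 CPM in CDKN1A knockdown and 4.21 ± 0.856 CPM in KDM1A knockdown (log2 0.48 ± 0.13, adjusted p = 0.0194, edgeR), with no overlap. That call was lost without CDKN1A guide 2 replicate 1 or 2 (adjusted p = 0.0537 and 0.0533) and without KDM1A guide 2 replicate 1 (log2 0.35, adjusted p = 0.0602). It stayed under 26 of the 35 alternatives, over which the log2 value ran from 0.29 to 0.7.

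CDKN1A against SPP1 knockdown differed in RBL1, CDKN1C and RB1, all higher in CDKN1A knockdown, in a comparison that called 12.1% of all genes. RBL2, which rose in CDKN1A knockdown against control, was not called here (log2 0.15 ± 0.07, edgeR adjusted p = 0.153). RBL1 averaged 50.5 ± 1.65 CPM in CDKN1A knockdown (n = 4) and 43.6 ± 1.2 CPM in SPP1 knockdown (n = 6), with no overlap (log2 0.21 ± 0.05, edgeR adjusted p = 0.0066). CDKN1C averaged 2.79 ± 0.662 CPM in CDKN1A knockdown and 1.33 ± 0.539 CPM in SPP1 knockdown (log2 1.08 ± 0.34, adjusted p = 0.0471, edgeR), and 3 of 4 CDKN1A libraries lay above every SPP1 library. RB1 averaged 102 ± 4.65 CPM in CDKN1A knockdown and 88.8 ± 5.55 CPM in SPP1 knockdown (log2 0.20 ± 0.06, adjusted p = 0.0435, edgeR). The CDKN1C and RB1 calls were close to the threshold: 11 and 13 of the 18 fits with 1 library left out lost them, at adjusted p values up to 0.127 and 0.121. Of these losses, 3 and 5 came from leaving out a library of neither group. Without SPP1 guide 3 replicate 1, RBL1 stayed called (edgeR adjusted p = 0.0146), and CDKN1C (log2 1.10, 0.0657) and RB1 (log2 0.19, 0.0863) did not.

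KDM1A against SPP1 knockdown differed in 4 of the 9 genes, in a comparison that called 11.9% of all genes. RBL1 (50.8 ± 3.29 CPM in KDM1A knockdown and 43.6 ± 1.2 CPM in SPP1 knockdown, log2 0.22 ± 0.05, edgeR adjusted p = 0.00452) and RB1 (104 ± 4.45 and 88.8 ± 5.55 CPM in the same order, log2 0.23 ± 0.06, adjusted p = 0.0252) were higher in KDM1A knockdown. CDKN2B (4.21 ± 0.856 CPM in KDM1A knockdown and 6.02 ± 0.36 CPM in SPP1 knockdown, log2 -0.51 ± 0.12, edgeR adjusted p = 0.0103) and RBL2 (32.7 ± 2.17 and 39.7 ± 3.51 CPM in the same order, log2 -0.28 ± 0.07, adjusted p = 0.0112) were lower. For all of these but RB1, no library overlapped between the groups, though how often this holds over all genes was not counted. Without 1 library, the RB1 call was lost in 4 of 18 fits (KDM1A guide 2 replicate 1 or 2, KDM1A guide 3 replicate 2, or SPP1 guide 3 replicate 1, adjusted p = 0.052 to 0.0947), and the RBL2 call in 1 (KDM1A guide 2 replicate 2, adjusted p = 0.0748). Without SPP1 guide 3 replicate 1, the calls on CDKN2B, RBL1 and RBL2 held (edgeR adjusted p = 0.0127, 0.00915 and 0.0248). Of the 35 alternatives, 32 kept the call on CDKN2B, 33 that on RBL1, 28 that on RB1 and 30 that on RBL2. The log2 value of CDKN2B ran from -0.73 to -0.31 over them.

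Each guide was then set against the 4 control libraries in a fit with 1 coefficient per guide. Its spread is that between the replicates of a guide, with a biological coefficient of variation of 6.92%, against 9.32% when the guides of a target are counted as replicates. RBL2 was higher with both CDKN1A guides (log2 0.31 with guide 1 and 0.35 with guide 2, edgeR adjusted p = 0.0235 and 0.0106), where 2.35 and 2.90% of all genes rose. CDKN2B was lower with KDM1A guide 2 (log2 -0.82, adjusted p = 0.00179, edgeR), where 5.68% of all genes fell, and stood at -0.41 with guide 3 (adjusted p = 0.0847). RBL1 stood at -0.20, -0.20 and -0.21 with SPP1 guides 1, 2 and 3 (edgeR adjusted p = 0.0683, 0.038 and 0.0304), where 2.59, 5.23 and 5.99% of all genes fell.

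In the other direction, 2.34 and 3.32% of all genes fell with CDKN1A guides 1 and 2, and 1.98% rose with SPP1 guide 1. With KDM1A guide 3, 6.34% rose and 5.17% fell.

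Further calls appeared with single guides. RBL2 was higher with SPP1 guide 2 (log2 0.31, edgeR adjusted p = 0.0158), where 5.41% of all genes rose, and stood at 0.05 and 0.18 with guides 1 and 3. CDKN1B was higher with KDM1A guide 2 (log2 0.24, edgeR adjusted p = 0.0499), where 8.41% of all genes rose, and with SPP1 guide 3 (log2 0.33, adjusted p = 0.0123), where 4.56% rose. CDKN2C was higher with SPP1 guide 3 (log2 0.33, edgeR adjusted p = 0.033), a guide whose replicates had 53.9 and 73.7 CPM. Replicate 1 of SPP1 guide 3 is the library with SPP1 inside the control range, and no guide 3 value was computed without it. Between the guides of 1 target, edgeR called 0 of 45 tests of these genes, with 10 at an unadjusted p under 0.05 and a lowest adjusted p of 0.0903. Of all genes, 1.28% were called between the CDKN1A guides, 6.15% between the KDM1A guides, and 2.40, 2.80 and 0.214% between SPP1 guides 2 and 1, 3 and 1, and 3 and 2. Between control guide 2 and control guide 1 edgeR also called 0 of the 9 genes, while 0.554% of all genes were higher and 0.784% lower, and 3 of the 9 had an unadjusted p under 0.05. Those were CDKN1C (1.11 ± 0.733 CPM with guide 2 and 2.81 ± 0.328 CPM with guide 1, n = 2 each, log2 -1.36, edgeR adjusted p = 0.174), CDKN2C (log2 -0.31, 0.198) and RB1 (log2 0.21, 0.241). For these 3 genes the difference between the control guides was larger in size than the log2 fold change of any knockdown against control. The same held for CDKN2D (log2 -0.29, edgeR adjusted p = 0.378). DESeq2 was not run between guides.

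**Figure D5:**
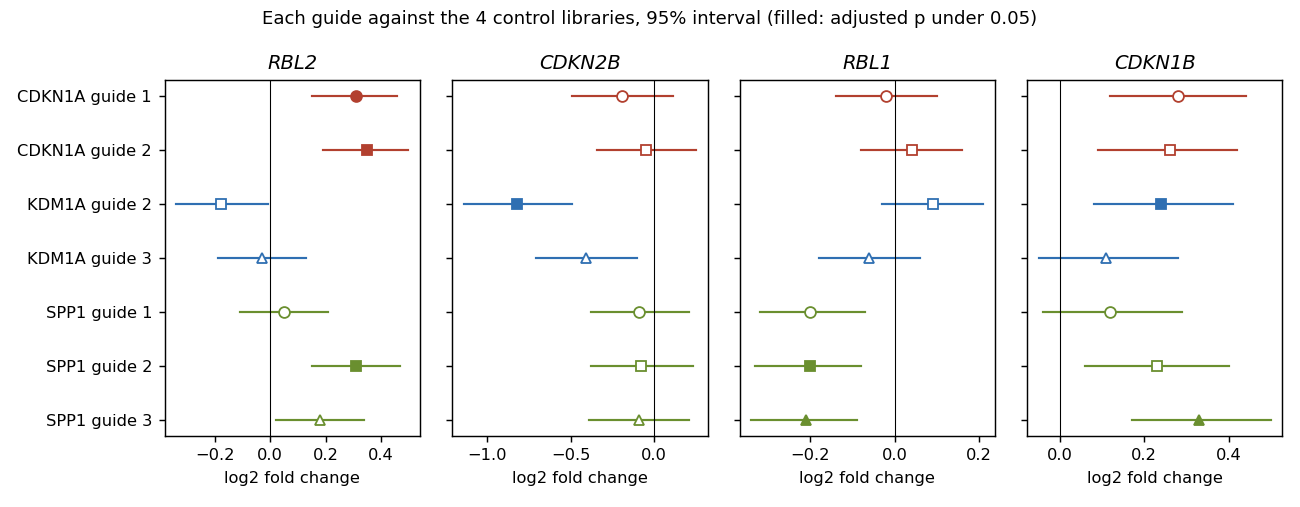
Log2 fold change of RBL2, CDKN2B, RBL1 and CDKN1B with each of the 7 targeting guides against the 4 control libraries, with 95% intervals and filled points at an adjusted p under 0.05. RBL1 lies between -0.21 and -0.20 with all 3 SPP1 guides, and CDKN2B at -0.82 and -0.41 with the KDM1A guides.

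Around these genes in the pathway, 1 of 9 tested G1 cyclins and their kinases fell in CDKN1A knockdown: CCND3, a D-type cyclin that drives CDK4 and CDK6, had 62.7 ± 3.59 CPM in CDKN1A knockdown and 78.7 ± 4.2 CPM in control (n = 4 each, log2 -0.33, edgeR adjusted p = 0.0244). In SPP1 knockdown 3 of 9 fell. CDK6 had 156 ± 21.9 CPM in SPP1 knockdown and 228 ± 20.2 CPM in control (log2 -0.55, adjusted p = 0.00284, edgeR), with CDK2 at log2 -0.22 and CDK1 at log2 -0.26. In KDM1A knockdown edgeR and DESeq2 called 0 of 9, with 4 at an unadjusted p under 0.05. The medians of the list were -0.10, -0.03 and -0.18 in CDKN1A, KDM1A and SPP1 knockdown, beside -0.004, -0.011 and 0.004 over all genes. The counts of this list and those below stand beside these shares of all genes tested. In CDKN1A knockdown 1.09% rose and 0.917% fell, in KDM1A knockdown 5.33 and 3.73%, and in SPP1 knockdown 2.40 and 3.06%. No list was tested as a set.

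Of 10 E2F and DP factors, the partners that pocket proteins hold, TFDP2 rose in CDKN1A knockdown (23.8 ± 1.44 CPM in CDKN1A knockdown and 19 ± 1.18 CPM in control, log2 0.33, edgeR adjusted p = 0.0357). In KDM1A knockdown E2F5, a partner of p130, rose (log2 0.46, edgeR adjusted p = 0.0241), and E2F7, an atypical repressor, fell (log2 -0.27, adjusted p = 0.0219). E2F7 also fell in SPP1 knockdown (log2 -0.26, adjusted p = 0.0291, edgeR). Of 7 DREAM and MuvB partners, FOXM1, a driver of mitotic genes, rose in CDKN1A knockdown (189 ± 4.35 CPM in CDKN1A knockdown and 160 ± 3.46 CPM in control, log2 0.24, adjusted p = 0.0202, edgeR), and MYBL2, which takes the MuvB core from p130 in cycling cells, fell in SPP1 knockdown (log2 -0.42, adjusted p = 0.0197). In KDM1A knockdown edgeR and DESeq2 called 0 of those 7, with 0 at an unadjusted p under 0.05.

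Among 14 regulators of the INK4-ARF locus, Polycomb proteins included, 3 fell in SPP1 knockdown: ETS1 (166 ± 15 CPM in SPP1 knockdown and 217 ± 6.7 CPM in control, log2 -0.39, edgeR adjusted p = 0.00621), ETS2 (log2 -0.26) and JUNB (log2 -0.43). ETS1 and ETS2 are known activators of the p16 promoter. The p16 transcripts stood at log2 0.41 in SPP1 knockdown, which was not called, and a link was not tested. In CDKN1A and KDM1A knockdown edgeR and DESeq2 called none of the 14, with 3 and 4 at an unadjusted p under 0.05. On the ARF side, 1 of 5 genes tested fell in SPP1 knockdown: MDM2, the p53 ubiquitin ligase that p14ARF binds (88 ± 13.6 CPM in SPP1 knockdown and 113 ± 10.4 CPM in control, log2 -0.36, adjusted p = 0.0302, edgeR). In CDKN1A knockdown edgeR and DESeq2 called 0 of 4 (CDKN1A knockdown leaves out its own target), with 1 at an unadjusted p under 0.05, and in KDM1A knockdown 0 of 5, with 2.

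Of 11 factors upstream of CDKN1B and CDKN2B, TGFBR1, the type I TGF-beta receptor, fell in KDM1A knockdown, where CDKN2B fell (24.7 ± 1.63 CPM in KDM1A knockdown and 32.6 ± 2.78 CPM in control, log2 -0.40, edgeR adjusted p = 0.00088). FOXO3, a forkhead factor that can activate CDKN1B, fell there too (log2 -0.24, adjusted p = 0.0296). In SPP1 knockdown TGFBR2, the type II receptor, rose (424 ± 52.6 CPM in SPP1 knockdown and 284 ± 18 CPM in control, log2 0.58, adjusted p = 0.00471, edgeR), while TGFB1 (log2 -0.35), TGFBR1 (log2 -0.24) and FOXO1 (0.446 ± 0.117 CPM in SPP1 knockdown and 0.902 ± 0.163 CPM in control) fell. The FOXO1 means lay below those of CDKN1C in both groups, so few counts stand behind that fall. In CDKN1A knockdown edgeR called 0 of the 11, with 3 at an unadjusted p under 0.05, and DESeq2 1. CDKN2B stood at log2 -0.09 in SPP1 knockdown and CDKN1B at 0.18 in KDM1A knockdown, neither of them called. Whether these factors bear on CDKN1B or CDKN2B here was not tested.

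The other 5 lists, with 24 tested genes, had 0 calls by edgeR against control, with 3, 2 and 5 genes at an unadjusted p under 0.05 in CDKN1A, KDM1A and SPP1 knockdown, and 1, 0 and 0 calls by DESeq2. Their genes of smallest p were SKP1 of the ligase that removes p27 (log2 0.12 in SPP1 knockdown, edgeR adjusted p = 0.269), MNAT1 of the CDK-activating kinase (log2 0.14 in SPP1 knockdown, adjusted p = 0.191) and MTAP, the only tested neighbour of CDKN2A at 9p21 (log2 -0.11 in KDM1A knockdown, adjusted p = 0.363). PHLDA2, a neighbour of CDKN1C in the imprinted domain, had 73.7 ± 4.23 CPM in CDKN1A knockdown and 89.4 ± 5.66 CPM in control (log2 -0.28, adjusted p = 0.0521, edgeR). Of 5 proliferation markers TOP2A had the smallest p (log2 -0.16 in SPP1 knockdown, adjusted p = 0.115, edgeR). The median log2 fold change of the 5 was 0.10, 0.00 and -0.16 in CDKN1A, KDM1A and SPP1 knockdown, with 1, 0 and 4 at an unadjusted p under 0.05. The medians over all genes were -0.004, -0.011 and 0.004. The part of proliferation in the change of RBL1 and RBL2 was not tested.

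As a description over the 18 libraries, which share groups and guides, the pairs of the 9 genes most alike by Pearson's r of log2 CPM were CDKN2C with CDKN2D (0.76), RB1 with RBL1 (0.74) and CDKN2A with CDKN2D (0.62). RBL2 had r = -0.05 with RB1 and -0.27 with RBL1. Among all genes tested, the 3 most like RBL2 were SMARCA2, MRTFB and FMNL2 (r = 0.91, 0.89 and 0.89), and those most like RBL1 were IQCB1, ZDHHC2 and MN1 (0.93, 0.92 and 0.91). For RB1 they were PCNX4, SLC30A6 and UGGT1 (0.88, 0.86 and 0.84), for CDKN2B NFATC2, TBX15 and RHOBTB2 (0.91, 0.89 and 0.88), for CDKN2C ARL2, FADD and PSME1 (0.88, 0.86 and 0.84), and for CDKN2D NUDT1, THOC6 and BAX (0.93, 0.86 and 0.84). CDKN1B, CDKN1C and CDKN2A had lower highest values, with HNRNPA2B1, SNUPN and MLLT3 (0.83, 0.79 and 0.79), C18orf54, APAF1 and ZNF519 (0.82, 0.80 and 0.79), and DMAC2, XRCC6 and LINC00888 (0.80, 0.78 and 0.77).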

How the data were processed

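Estimated counts, TPM and effective transcript lengths came from the tables that the authors deposited, 1 per library, for 188753 Ensembl transcripts. The submitters' processing notes name kallisto and the build GRCh38. Neither kallisto's version and settings nor its transcriptome are stated there. Estimated counts as deposited hold fractions and are not scaled to depth, the deposited TPM are scaled per length and depth, and the deposited effective lengths (unit other) entered 1 alternative. By identifier, 169797 transcripts (90.0%) matched 35579 genes of GENCODE 29. The 18956 unmatched transcripts held 2.49 to 2.62% of a library's counts and were left out.

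The sums of counts over a gene's transcripts were rounded. filterByExpr kept genes with a count minimum of 10, and libraries were scaled by TMM (factors 0.968 to 1.023). The model was edgeR 4.0.16's quasi-likelihood fit in R 4.3.3, with 1 coefficient per group over all 18 libraries. Two-sided p-values were adjusted by Benjamini-Hochberg over 13527 genes, or 13529 with the CDKN2A transcripts in rows of their own by first exon. Calls needed an adjusted p under 0.05. Log2 CPM for correlations carried a prior count of 2. The common dispersion was 0.00869, and 0.00478 with 1 coefficient per guide. DESeq2 1.42.0 and limma 3.58.1 (which edgeR needs) were also used. The model was tested on simulated data.

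Replicate numbers did not pair libraries: over 36 pairs of guides the deviations of same-numbered libraries correlated at -0.12 to 0.07, with 0 pairs over 0.1, so no block was used. Named genes are all 9 genes against control, those called between knockdowns, the targeted genes, up to 4 called genes per pathway list (or its gene of smallest p) and the 3 genes most like each. The genes and lists were chosen with earlier results of these data known. Alternatives were other size factors, no filter, DESeq2, the 2 groups alone, transcript length, the replicate number, the guide, and libraries or guides left out.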

Additional observations from a re-analysis of the deposited data

Results flagged for a closer look

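In 3 of 48 groups of 4 to 6 libraries, 1 library lay far from the others by Dixon's criterion, which chance passes in about 1 of 20 groups. Replicate 2 of SPP1 guide 3 had 73.7 CPM of CDKN2C, while the other 5 SPP1 libraries had at most 53.9 CPM, and 26.3 CPM of CDKN2D, while the others had at most 18.4 CPM. Across all genes that library also lay farthest from its group mean, with a root mean square log2 deviation of 0.332, beside 0.241 to 0.323 for the other 17. Replicate 2 of control guide 2 had 4.58 CPM of p14ARF transcripts, while the other 3 control libraries had at least 8.62 CPM.

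A direct edgeR test of the difference called 5 genes between knockdowns, in comparisons that called many other genes too. Between CDKN1A and KDM1A knockdown 6.91% of all genes were higher and 8.06% lower. Between CDKN1A and SPP1 knockdown 12.1% were called, and between KDM1A and SPP1 knockdown 11.9%. Between CDKN1A and KDM1A knockdown the log2 difference was 0.43 for RBL2 and 0.48 for CDKN2B. Between CDKN1A and SPP1 knockdown it was 1.08 for CDKN1C, 0.20 for RB1 and 0.21 for RBL1. Between KDM1A and SPP1 knockdown it was -0.51 for CDKN2B, -0.28 for RBL2, 0.23 for RB1 and 0.22 for RBL1. Only RBL2 between CDKN1A and KDM1A knockdown stayed called under all 35 alternatives. For CDKN1A against SPP1 knockdown, CDKN1C stayed called under 18 of them, RB1 under 12 and RBL1 under 32. CDKN2B stayed called under 26 between CDKN1A and KDM1A knockdown. For KDM1A against SPP1 knockdown the number was 32 for CDKN2B, 30 for RBL2, 28 for RB1 and 33 for RBL1.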

How the results depend on the processing

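Over 1470 alternative values of 42 single-gene results, 1319 kept their direction and their side of the threshold, 94 no longer passed, 14 newly passed and 43 changed sign. All changes of sign were in comparisons whose original value had not passed the test. Low counts limit CDKN1C and CDKN2B, and the small number of guides limits every comparison.

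The number of the 9 genes called, from 1, 1 and 1 in CDKN1A, KDM1A and SPP1 knockdown against control, and 2, 3 and 4 for CDKN1A against KDM1A, CDKN1A against SPP1 and KDM1A against SPP1 knockdown, moved as follows. With a transcript length offset it was 0, 0, 0, 1, 0 and 2 in that order, and with the libraries of a guide summed into 1 it was 0, 0, 0, 1, 0 and 0, where fewer samples enter the fit. DESeq2 called 2 in CDKN1A and 2 in SPP1 knockdown against control. With 1 coefficient per guide, 2 were called in CDKN1A and 3 in SPP1 knockdown against control, and 4 between CDKN1A and KDM1A knockdown. No filter left 1 between CDKN1A and KDM1A knockdown. The replicate block, of libraries that the numbers do not pair, gave 1, 1, 1, 2, 2 and 4. The call it lost was RB1 between CDKN1A and SPP1 knockdown (log2 0.20, edgeR adjusted p = 0.0522).

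Without control guide 1 the calls against control were 0, 0 and 0, and without control guide 2 they were 0 in CDKN1A knockdown. Without CDKN1A guide 1 they were 0 in CDKN1A knockdown against control and 1 against SPP1 knockdown. Without CDKN1A guide 2 they were 0 against control, 1 against KDM1A and 0 against SPP1 knockdown. Without KDM1A guide 2 they were 0 in KDM1A knockdown against control, 1 between CDKN1A and KDM1A knockdown and 0 between KDM1A and SPP1 knockdown. Without SPP1 guide 1 they were 3 in SPP1 knockdown against control and 1 between CDKN1A and SPP1 knockdown. Without SPP1 guide 2 they were 0 in SPP1 knockdown against control, and without SPP1 guide 3 they were 0 there and 2 in CDKN1A knockdown against control. With 1 library left out, the counts ranged over 0 to 2, 1 to 1, 0 to 2, 1 to 3, 1 to 4 and 2 to 4. For the guides and libraries left out, fewer samples enter the fit. Counts moved both up and down there, and why they moved was not tested for any setting.

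Signs changed as follows, all as log2 values against control. With the length offset, CDKN2B was 0.15 in CDKN1A knockdown and 0.07 in SPP1 knockdown, RBL1 was -0.05 in CDKN1A knockdown, and CDKN2A was 0.06 and CDKN2D -0.02 in KDM1A knockdown. Without control guide 1, RB1 was -0.03 and RBL1 -0.02 in CDKN1A knockdown. In KDM1A knockdown CDKN1C was then 0.26, CDKN2A 0.02, RB1 -0.01, RBL1 -0.01 and p16 -0.06, and in SPP1 knockdown CDKN1C was 0.27 and CDKN2D 0.13. Without control guide 2, CDKN2D was -0.11 in KDM1A knockdown, and CDKN2C was -0.03 and p14ARF -0.17 in SPP1 knockdown. Without CDKN1A guide 2, RBL1 was -0.02 in CDKN1A knockdown. Without KDM1A guide 2, CDKN2A was 0.11 and RBL1 -0.05, and without KDM1A guide 3, CDKN2D was -0.04 and p16 -0.21, in KDM1A knockdown. In SPP1 knockdown CDKN2D was 0.02 without SPP1 guide 1 and 0.07 without guide 2, and p14ARF was -0.09 without guide 3. With all CDKN2A transcripts in 1 row, the value was 0.31 in CDKN1A knockdown, where p14ARF alone was -0.28, and -0.03 in KDM1A knockdown, where p16 alone was 0.08. With 1 library left out, signs varied within -0.01 to 0.11 for RB1 and -0.01 to 0.04 for RBL1 in CDKN1A knockdown. In KDM1A knockdown they varied within -0.11 to 0.07 for CDKN2A, -0.03 to 0.10 for CDKN2D, -0.02 to 0.06 for RBL1 and -0.12 to 0.18 for p16, and in SPP1 knockdown within -0.14 to 0.06 for CDKN2D and -0.15 to 0.13 for p14ARF.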
